A study of Mus musculus with 2 samples.

Results

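Voltage-gated calcium channels were represented by 10 genes, taken by name: the pore-forming alpha1 subunits Cacna1a, Cacna1b, Cacna1c, Cacna1d, Cacna1e, Cacna1g, Cacna1h and Cacna1i, the cytoplasmic beta subunit Cacnb4 and the extracellular alpha2delta subunit Cacna2d1. All 10 were found among the 43346 Ensembl genes of each deposited gene table, and their 95 transcripts were found in the transcript tables. The tables described 2 RNA-seq libraries, replicate 1 and replicate 2, each from a laser-cut area of layer 5 of the cerebral cortex of a male wild-type mouse aged 8 months. The labels name the strain as C57Bl6 and, in the source name, as B6NCrl; they give an area of 8000 square microns and enter each area as 50 cells. The labels number them as biological replicates, yet a single donor number is entered for both. They were taken as areas of 1 animal, which the labels leave uncertain, in 1 group with no treatment, no mutation and no contrast between conditions. The SDs given are the spread from one area to the other, which may be partly technical, and no p-value was computed because each side of a difference is 1 library.

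A voltage-gated calcium channel opens its pore when the membrane is depolarised, and the calcium that enters triggers transmitter release, shapes firing and reaches the nucleus as a signal for transcription. The alpha1 subunit forms the pore and the voltage sensor and sets the channel type. Beta subunits bind the cytoplasmic linker between the first and second domains of high-voltage-activated alpha1 subunits and help them to the membrane, and alpha2delta subunits act from outside the cell on trafficking and on the placing of channels at synapses. T-type alpha1 subunits open at lower voltages and do not need a beta subunit.

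The beta-binding stretch of that linker is shown for the 5 high-voltage-activated members, because it is the sequence through which Cacnb4 meets them. Each run is the coding strand, 5′ to 3′, of 1 coding transcript in GENCODE M21 (GRCm38), left in lower case because the whole run is the stretch:
Cacna1a: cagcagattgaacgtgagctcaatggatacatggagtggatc
Cacna1b: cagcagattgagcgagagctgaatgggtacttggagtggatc
Cacna1e: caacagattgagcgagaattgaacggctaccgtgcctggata
Cacna1c: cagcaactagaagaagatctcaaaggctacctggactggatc
Cacna1d: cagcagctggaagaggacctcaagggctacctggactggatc
The pattern searched in the translated coding sequences was Gln-Gln-x-Glu-x-x-Leu-x-Gly-Tyr-x-x-Trp-Ile, where x is any residue. It was set in advance to match this stretch of high-voltage-activated subunits. Which genes hold it therefore follows from that choice and is not a separate result. It was found once in each of these 5 members and in no coding transcript of Cacna1g, Cacna1h or Cacna1i. Among 21877 genes with a coding transcript 7 held it, which is 0.032%, and the other two were Cacna1f and Cacna1s, the alpha1 genes best known from retina and skeletal muscle. Cacna1c and Cacna1d shared 14 of 14 residues in the stretch but 37 of 42 bases, and Cacna1a and Cacna1b shared 13 of 14 residues and 37 of 42 bases. Cacna1a and Cacna1c, from different classes, shared 8 of 14 residues. The pattern itself fixes 8 of the 14, so every pair shares at least these, and Cacna1a and Cacna1c shared no others. The match is a description of the sequences and says nothing of the strength of binding.

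Replicate 1 held 26059117 expected counts and replicate 2 held 28276843, where an expected count is an estimated number of reads assigned to a gene. The 10 genes together took 19737 of them in replicate 1 and 20777 in replicate 2, or 0.0757% and 0.0735% of the libraries. Levels are given in TPM, transcript abundances scaled to a fixed sum per library, which allow for transcript length and can be compared between genes. Among the marker lists, all 7 genes of the layer 5 list and all 7 of the excitatory neuron list were at 1 TPM or more in both libraries. So were 51.4% of all nuclear protein-coding genes and most genes of the microglial, oligodendrocyte and astrocyte lists below. These counts therefore cannot check the tissue label. GABAergic markers were present too, 7 of 9 at 1 TPM or more in both, with a summed level of 1611 TPM in replicate 1, against 3175 TPM in replicate 2. Within that list Sst was at 194 TPM in replicate 1 and at 2859 TPM in replicate 2, most of the sum there. Gad1 was at 438 TPM in replicate 1 and at 65.2 TPM in replicate 2, and Pvalb at 918 and 145 TPM in the same order. Of the 9 genes 6 were higher in replicate 2. Microglial markers, 10 of 10 at 1 TPM or more in both, summed to 331 TPM in replicate 1, against 113 TPM in replicate 2. Oligodendrocyte markers, 8 of 8, summed to 552 TPM in replicate 1, against 959 TPM in replicate 2. Astrocyte markers, 7 of 8, summed to 646 TPM in replicate 1, against 754 TPM in replicate 2. Most of that sum was Aldoc, at 437 and 519 TPM in the same order. Of the 8 astrocyte genes 3 were higher in replicate 1 and 5 in replicate 2. Endothelial markers, 5 of 6 at 1 TPM or more in both, summed to 107 TPM in replicate 1, against 61.5 TPM in replicate 2. Of these 6 genes 3 were higher in replicate 1 and 3 in replicate 2. Mural markers, 2 of 8, summed to 23.9 TPM in replicate 1, against 7.01 TPM in replicate 2, with Acta2 at 0 in both. The libraries thus differ in markers of cell classes that can carry calcium channels, and the part of this in the differences given below was not tested. In such areas, fewer cells of a type and less RNA per cell cannot be told apart.

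Of the 10 members, 9 were at 1 TPM or more in both libraries, against 51.4% of all nuclear protein-coding genes (11037 of 21461). The exception was Cacna1h, at 2.33 TPM in replicate 1 and at 0.77 TPM in replicate 2. The value in replicate 2 lies below the authors' own interval, 0.935 to 2.02 TPM around a posterior mean of 1.46 TPM. At a minimum of 5 TPM in both libraries 5 members were left, namely Cacnb4, Cacna2d1, Cacna1a, Cacna1e and Cacna1b. Over all transcripts, the auxiliary subunits and Cacna1a, Cacna1e and Cacna1b thus headed the list, and the L-type and T-type alpha1 genes made up its lower part.

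**Figure D1:**
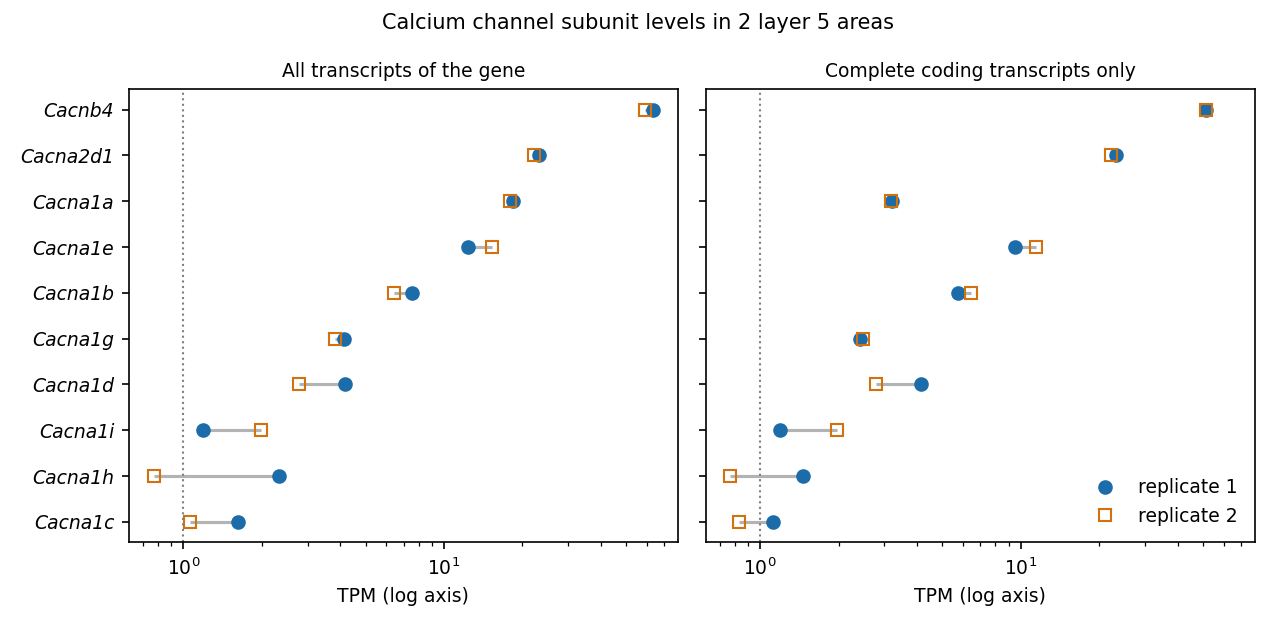
Level of each member in TPM on a log axis, over all transcripts of the gene (left) and over complete coding transcripts only (right); filled circles are replicate 1, open squares replicate 2, grey lines join them and the dotted line marks 1 TPM. Cacna1a stands at 18.5 and 17.9 TPM on the left but at 3.20 and 3.18 TPM on the right, while Cacna2d1 stays at 23.1 and 22.1 TPM.

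Positions are from the mm10 (GRCm38) assembly. Cacnb4, on chromosome 2 at positions 52428320 to 52676831 (minus strand), encodes the beta subunit that is disrupted in the lethargic mouse, a model of ataxia and absence seizures. It was at 63.4 TPM in replicate 1 and at 59.0 TPM in replicate 2 (61.2 ± 3.13 TPM, SD, n = 2), from 8719 and 9061 expected counts. It was the most abundant member in both areas. Cacna2d1, on chromosome 5 at positions 15934691 to 16374511 (plus strand), encodes the alpha2delta subunit that binds gabapentin. It was at 23.1 TPM in replicate 1 and at 22.1 TPM in replicate 2 (22.6 ± 0.71 TPM, SD, n = 2). The SD ranges of these neighbours did not touch, and their order was the same in both libraries.

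Cacna1a encodes the pore of P/Q-type channels, which drive release at most fast central synapses. It lies on chromosome 8 at positions 84388440 to 84640246 (plus strand) and was at 18.5 TPM in replicate 1 and at 17.9 TPM in replicate 2 (18.2 ± 0.40 TPM, SD, n = 2). Cacna1e, the pore of R-type channels (chr1:154390731-154884501, minus strand), was at 12.4 TPM in replicate 1 and at 15.3 TPM in replicate 2 (13.8 ± 2.04 TPM, SD, n = 2). Cacna1b, the pore of N-type channels (chr2:24603887-24763152, minus strand), was at 7.51 TPM in replicate 1 and at 6.45 TPM in replicate 2 (6.98 ± 0.75 TPM, SD, n = 2). The 3 genes kept the order Cacna1a, Cacna1e, Cacna1b in both areas with SD ranges apart.

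The L-type genes, whose channels couple depolarisation of the soma and dendrites to gene transcription, were low. Cacna1d (chr14:30039939-30491455, minus strand) was at 4.16 TPM in replicate 1 and at 2.78 TPM in replicate 2 (3.47 ± 0.98 TPM, SD, n = 2). Cacna1c (chr6:118587240-119196418, minus strand), usually described as the main L-type gene of the brain, was at 1.62 TPM in replicate 1 and at 1.06 TPM in replicate 2 (1.34 ± 0.40 TPM, SD, n = 2). Cacna1d was thus above Cacna1c in both areas. Dcp1b, on the opposite strand, overlaps exons of Cacna1c, and Dcp1a and Chdh overlap exons of Cacna1d. Their levels were 2.38 and 3.50 TPM for Dcp1b, 1.74 and 1.78 TPM for Dcp1a and 0 and 0.38 TPM for Chdh, in replicate 1 and in replicate 2, and because the strand setting is not given their reads cannot be told apart from those of the channel genes with certainty.

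The T-type genes, whose channels carry low-threshold calcium spikes and burst firing, were low too. Cacna1g (chr11:94408391-94474198, minus strand) was at 4.12 TPM in replicate 1 and at 3.81 TPM in replicate 2 (3.97 ± 0.22 TPM, SD, n = 2). Cacna1i (chr15:80287238-80398279, plus strand) was at 1.19 TPM in replicate 1 and at 1.98 TPM in replicate 2 (1.59 ± 0.56 TPM, SD, n = 2). Both values lie just below the authors' own intervals, 1.24 to 2.63 TPM in replicate 1 and 1.991 to 3.37 TPM in replicate 2. Cacna1h (chr17:25374285-25433783, minus strand), given above, averaged 1.55 ± 1.10 TPM (SD, n = 2), and its exons overlap Tpsg1 on the opposite strand, at 1.55 TPM in replicate 1 and at 1.03 TPM in replicate 2. Cacna1g was the highest T-type gene in both areas, but Cacna1h came before Cacna1i in replicate 1 and after it in replicate 2. Neighbours in the order of all 10 whose SD ranges overlapped, and whose order differed between the libraries, were Cacna1g with Cacna1d, Cacna1i with Cacna1h and Cacna1h with Cacna1c.

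The 8 alpha1 genes summed to 51.8 TPM in replicate 1, against 50.0 TPM in replicate 2. The genes Cacna1a, Cacna1b and Cacna1e, together the Cav2 class, held 74.1% of that sum in replicate 1 and 79.2% in replicate 2 (76.7% ± 3.63, SD, n = 2). The T-type genes held 14.8% in replicate 1 and 13.1% in replicate 2 (13.9% ± 1.16, SD, n = 2), and the L-type genes held 11.2% in replicate 1 and 7.67% in replicate 2 (9.42% ± 2.47, SD, n = 2). The Cav2 share was the largest by more than the spread between areas, whereas the T-type and L-type shares differed by little more than theirs. On posterior mean TPM, the authors' second estimate, the shares were 74.1%, 16.6% and 9.33% for the Cav2, T-type and L-type genes.

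The transcript tables changed the place of Cacna1a. Transcripts were classed by their GENCODE M21 type, and those with a complete coding sequence were set apart from partial coding, retained intron, processed and decay-targeted models. Cacna1a-201, the single complete coding transcript above 0, was at 3.20 TPM in replicate 1 and at 3.18 TPM in replicate 2, or 17.3% and 17.8% of the TPM of the gene. Transcripts annotated as retained introns held 13.9 TPM in replicate 1, against 11.9 TPM in replicate 2, or 74.9% and 66.4%. Coding transcripts thus held the smaller part of Cacna1a in both areas, and for the 9 other members they held most of the TPM in both areas.

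**Figure D2:**
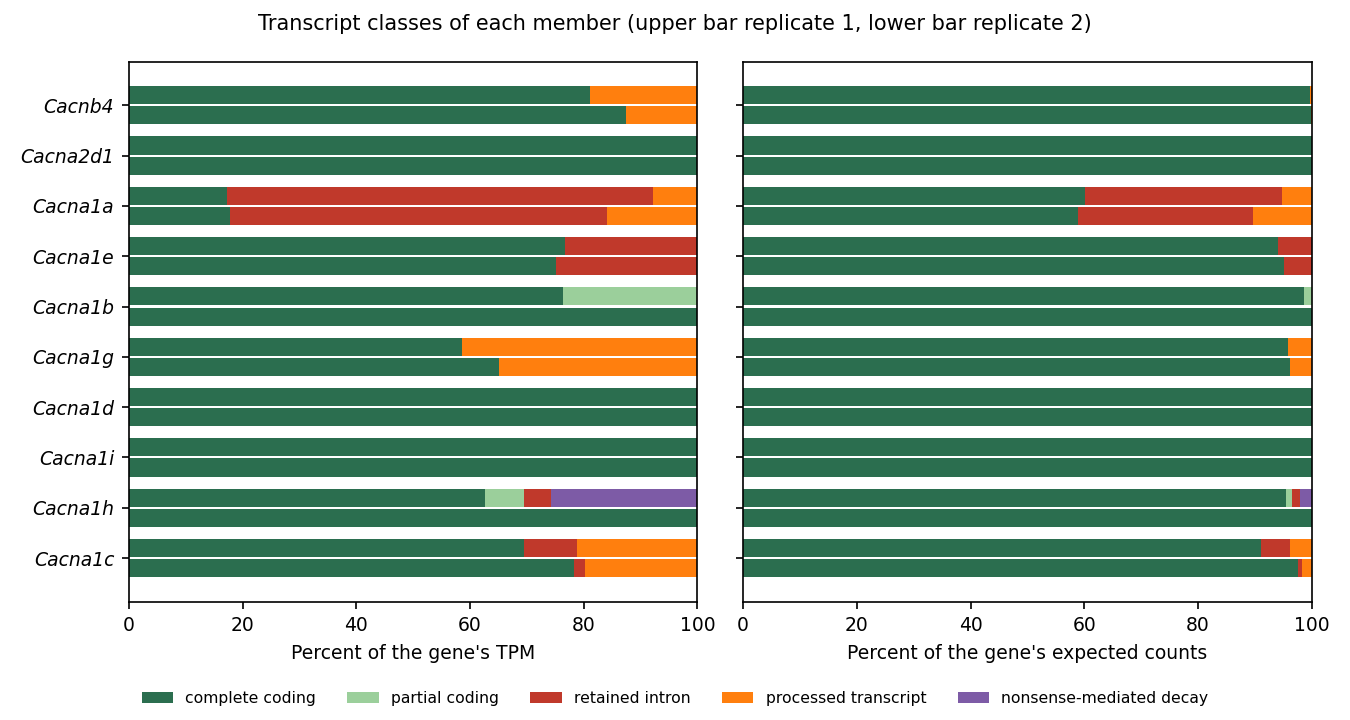
Share of each transcript class in the TPM of each member (left, percent) and in its expected counts (right, percent), with the upper bar of each pair for replicate 1 and the lower for replicate 2. For Cacna1a the complete coding class holds 17.3% and 17.8% of TPM and 60.1% and 58.9% of counts, while for Cacna1d and Cacna1i it holds 100% of both.

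Expected counts, which do not allow for length, gave the same gene another balance, and the retained-intron models are short. Of the 897 expected counts of Cacna1a in replicate 1, 60.1% were assigned to Cacna1a-201, and of the 941 in replicate 2, 58.9% were. The leading Cacna1a transcript in both libraries was Cacna1a-207, a retained-intron model of 1153 bases at positions 84601444 to 84613042 of chromosome 8, with 34.6% of the gene's expression in replicate 1 and 41.5% in replicate 2. Of its bases 523 lie in exons 32 to 36 of the 47 exons of Cacna1a-201 and 630 lie outside the exons of that transcript. It carried 145 expected counts in replicate 1 and 174 in replicate 2. Cacna1a-206, a further retained-intron model that begins in exon 1, was at 4.29 TPM in replicate 1 and at 2.84 TPM in replicate 2. An antisense gene, Gm16183, touches exons of Cacna1a and was at 0.69 TPM in replicate 1 and at 0.18 TPM in replicate 2.

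Restricted to complete coding transcripts, a comparison chosen after the data had been seen, Cacna1a moved to place 4 among the 8 alpha1 genes, against place 1 over all transcripts. Cacna1e led, at 9.50 TPM in replicate 1 against 11.5 TPM in replicate 2 (10.5 ± 1.39 TPM, SD, n = 2), and Cacna1b followed with 5.74 TPM in replicate 1, against 6.45 TPM in replicate 2 (6.10 ± 0.50 TPM, SD, n = 2). Cacna1d, unchanged at 3.47 ± 0.98 TPM (SD, n = 2), and Cacna1a, at 3.19 ± 0.01 TPM (SD, n = 2), came next with overlapping SD ranges. The Cav2 share of the alpha1 sum became 64.1% in replicate 1 and 70.4% in replicate 2 (67.2% ± 4.52, SD, n = 2). The T-type share became 17.6% ± 0.08 and the L-type share 15.2% ± 4.44 (SD, n = 2 each). Cav2 genes held the largest share on both bases, and the size of that share rests on how the Cacna1a models are counted.

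Other members carried smaller non-coding parts. Cacna1e-204, a retained-intron model of 2356 bases over exons 1 to 3 of Cacna1e-203, was at 1.67 TPM in replicate 1 and at 3.78 TPM in replicate 2, with the authors' intervals apart (1.27 to 2.05 and 3.13 to 4.29 TPM). The retained-intron models Cacna1e-206, at 0.78 and 0.02 TPM, and Cacna1e-205, at 0.44 and 0.01 TPM, went the other way, also with intervals apart. Together the retained-intron models of Cacna1e took 193.5 expected counts in replicate 1 and 192.9 in replicate 2. Processed transcripts of Cacna1g held 1.71 TPM in replicate 1, against 1.33 TPM in replicate 2, resting on 17.6 expected counts in each. Cacnb4-205, a processed transcript of 208 bases, was at 11.9 TPM in replicate 1 and at 7.42 TPM in replicate 2 from 28 and 18 expected counts, so that 18.8% and 12.6% of the TPM of Cacnb4 rested on 0.321% and 0.199% of its counts. Without the non-coding models Cacnb4 was at 51.4 TPM in replicate 1 and at 51.6 TPM in replicate 2. The gene A430018G15Rik overlaps exons of Cacnb4 on the opposite strand and was at 18.9 TPM in replicate 1 and at 13.8 TPM in replicate 2.

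The 4 coding transcripts of Cacnb4 differ mainly in their first exons, in where translation begins and in the form of 1 short exon. The coding starts and the short exon are shown because the transcript levels below are grouped by them. Coding bases before the first coding exon common to all 4 are in capitals, and the first shared coding bases are in lower case. Sequences are from GENCODE M21 (GRCm38), chromosome 2, minus strand:
Cacnb4-201 and Cacnb4-206: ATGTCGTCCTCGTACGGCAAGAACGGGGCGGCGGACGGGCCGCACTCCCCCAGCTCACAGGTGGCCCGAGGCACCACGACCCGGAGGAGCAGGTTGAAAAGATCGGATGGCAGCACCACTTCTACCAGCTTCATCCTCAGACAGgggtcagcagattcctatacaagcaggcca
Cacnb4-202: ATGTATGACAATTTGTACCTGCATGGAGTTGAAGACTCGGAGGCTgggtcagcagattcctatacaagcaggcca
Cacnb4-203: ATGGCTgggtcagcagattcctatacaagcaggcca
The part in capitals was 144 bases for Cacnb4-201 and Cacnb4-206, 45 bases for Cacnb4-202 and 6 bases for Cacnb4-203, before 1413 bases of equal length in all 4. The 45 bases of Cacnb4-202 also lie in exon 1 of Cacnb4-203, outside its coding sequence. Cacnb4-203 has a further exon of 160 bases that Cacnb4-202 lacks, and its coding sequence begins there. The encoded proteins have 519, 519, 486 and 473 residues for Cacnb4-201, Cacnb4-206, Cacnb4-202 and Cacnb4-203. The short exon is 20 bases long in 2 forms, of which each transcript carries 1, and both are given in full in lower case:
Upstream form, in Cacnb4-206, chr2:52467144-52467163: gaaaaatttccttgctcgtt
Downstream form, in Cacnb4-201, Cacnb4-202 and Cacnb4-203, chr2:52465894-52465913: caaaacagaagcagaaagtg

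The start shared by Cacnb4-201 and Cacnb4-206 was at 18.4 TPM in replicate 1 and at 18.8 TPM in replicate 2, or 35.8% and 36.5% of the complete coding TPM (36.1% ± 0.49, SD, n = 2). The start of Cacnb4-202 was at 25.7 TPM in replicate 1 and at 28.8 TPM in replicate 2, or 49.9% and 55.9%. The start of Cacnb4-203 was at 7.38 TPM in replicate 1 and at 3.93 TPM in replicate 2, or 14.3% and 7.62%, with overlapping intervals (4.79 to 9.86 and 2.33 to 5.69 TPM). The longest start thus held nearly the same share in both areas, while the other two starts differed more and in opposite directions. The upstream 20-base exon was at 15.2 TPM in replicate 1 and at 6.46 TPM in replicate 2, or 29.6% and 12.5% of the complete coding TPM, and the downstream form held the other 70.4% and 87.5%.

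Cacnb4-201 was at 3.17 TPM in replicate 1 and at 12.4 TPM in replicate 2, whereas Cacnb4-206 was at 15.2 TPM in replicate 1 and at 6.46 TPM in replicate 2. The authors' intervals around the posterior mean, whose level is not given, were apart for Cacnb4-201 (1.00 to 5.63 TPM in replicate 1 and 7.44 to 15.6 TPM in replicate 2). For Cacnb4-206 they were apart by a narrow margin (11.441 to 18.2 TPM in replicate 1 and 2.89 to 11.432 TPM in replicate 2). These transcripts share nearly all of their bases, and the number of reads that tell them apart was not counted here. Cacnb4-202 led in both areas, with 40.5% of the gene's expression in replicate 1 and 48.9% in replicate 2.

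**Figure D3:**
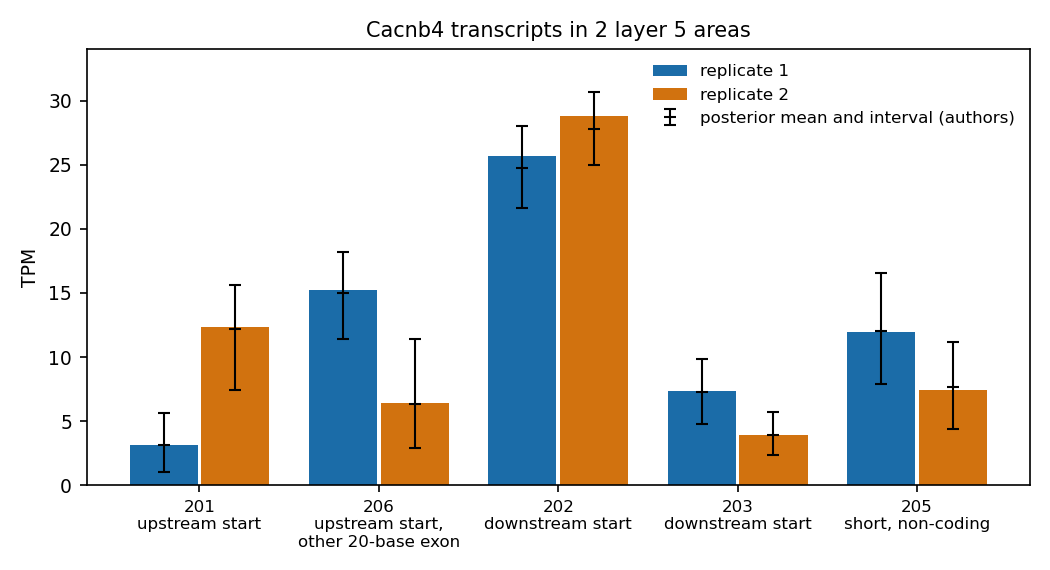
TPM of the 5 Cacnb4 transcripts above 0, as bars for replicate 1 (left of each pair) and replicate 2, with black marks for the authors' posterior mean and interval. Transcript 201 is at 3.17 and 12.4 TPM and transcript 206 at 15.2 and 6.46 TPM, while their sum is 18.4 and 18.8 TPM.

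The transcript that led by deposited percent differed between the libraries for 2 of 10 members, 20.0%, against 19.7% of protein-coding genes with 2 or more transcripts (1713 of 8678), so that the members' share was near that of all genes. The 2 were Cacna1d and Cacna1g. Cacna1d-202 was at 2.15 TPM in replicate 1 and at 0 in replicate 2, with intervals apart (0.996 to 2.92 and 0.00 to 0.712 TPM), and Cacna1d-201 was at 2.01 TPM in replicate 1 and at 2.78 TPM in replicate 2. By the authors' posterior percent Cacna1d-201 led in both. For Cacna1g, Cacna1g-209 led in replicate 1 with 1.36 TPM and was at 0 in replicate 2, and Cacna1g-211 led in replicate 2 with 1.43 TPM and was at 0 in replicate 1. The intervals of Cacna1g-209 and those of Cacna1g-211 overlapped between areas, and posterior means ranked other models first.

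Cacna1g-211 carries a coding exon of 69 bases, exon 14, that Cacna1g-209 lacks, and Cacna1b-204 carries a coding exon of 108 bases, exon 40 of 47, that the leading Cacna1b-202 lacks. Cacna1b-204 also has 3 further coding bases in its exon 19, and the ends of the 2 Cacna1b models differ outside the coding sequence. Both whole exons are printed in lower case, on the minus strand of GRCm38:
Cacna1g-211, chr11:94439709-94439777: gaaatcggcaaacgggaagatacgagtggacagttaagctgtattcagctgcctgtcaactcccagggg
Cacna1b-204, chr2:24618255-24618362: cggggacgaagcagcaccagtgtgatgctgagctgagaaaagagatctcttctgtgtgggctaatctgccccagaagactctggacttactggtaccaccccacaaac
Cacna1b-204 was at 0.30 TPM in replicate 1 and at 1.87 TPM in replicate 2, with overlapping intervals (0.0171 to 1.09 and 0.524 to 3.45 TPM). Cacna1b-202 was at 5.41 TPM in replicate 1 and at 4.53 TPM in replicate 2, 72.0% and 70.2% of the gene's expression. The remaining members had 1 leading coding transcript in both areas: Cacna1i-202 with 100% in each, Cacna2d1-203 with 96.8% in replicate 1 and 96.0% in replicate 2, Cacna1e-203 with 76.7% and 75.0%, Cacna1h-205 with 62.6% and 100%, and Cacna1c-207 with 58.7% and 74.7%, in the same order. By the authors' posterior percent these shares were lower. In replicate 1 and replicate 2 they were 62.4% and 73.9% for Cacna1i-202, and 75.9% and 83.9% for Cacna2d1-203. For Cacna1e-203 they were 76.1% and 74.6%, for Cacna1h-205 30.9% and 27.4%, and for Cacna1c-207 41.9% and 59.1%. Of the 95 transcripts of the 10 genes 51 were at 0 in both libraries, 30 were above 0 in both and 14 in 1 library.

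No member differed by more than 2-fold between the areas on the log2(TPM + 1) scale, which understates the change of low genes. Among 11828 protein-coding genes whose mean level reached 1 TPM, 5.00% were more than 2-fold higher in replicate 1 and 5.32% more than 2-fold higher in replicate 2, so that a count of 0 of 10 is near what those shares give. The median absolute log2 ratio was 0.24 for the members and 0.33 for all genes tested. Signed, replicate 1 over replicate 2, it was 0.10 for the members and -0.05 for all. Replicate 1 was higher for 8 members on TPM, but for 6 on CPM with either TMM or DESeq2 factors and for 5 on complete coding transcripts, so the direction of the list depends on the scale.

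Over all 10 members the exact counting interval of the ratio excluded 1 for 7, against 76.8% of the protein-coding genes tested (9082 of 11828), so that the members' share was near that of all genes. Counting error does not include the variation of capture and amplification. Cacna1h had 266 expected counts in replicate 1 and 138 in replicate 2, a ratio of counts per total of 2.09 (exact 95% interval 1.70 to 2.59, counting error only), a plain ratio of TPM of 3.03 and a log2(TPM + 1) ratio of 0.91. With a pseudocount of 0.1 in place of 1 the log2 ratio was 1.48, and over complete coding transcripts it was 0.47. Cacna1d had 785 counts in replicate 1 and 553 in replicate 2, a ratio of 1.54 (1.38 to 1.72), and Cacna1c had 324 counts in replicate 1 and 243 in replicate 2, a ratio of 1.45 (1.22 to 1.72). Both L-type genes and Cacna1h were thus higher in replicate 1. The marker lists given above differ between the areas in both directions, and their part in this was not tested.

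Cacna1i and Cacna1e went the other way. Cacna1i had 248 counts in replicate 1 and 426 in replicate 2, a ratio of 0.632 (0.538 to 0.740), and Cacna1e had 3225 counts in replicate 1 and 3974 in replicate 2, a ratio of 0.881 (0.840 to 0.923). They were higher in replicate 2, and the part of the cell class markers in this was not tested either. The T-type genes Cacna1h and Cacna1i therefore differed between the areas in opposite directions, while for Cacna1g the ratio was 1.01 (0.887 to 1.16).

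The abundant members differed little. The ratio of counts per total was 1.04 (1.01 to 1.08) for Cacnb4, 1.10 (1.05 to 1.15) for Cacna2d1 and 1.03 (0.943 to 1.13) for Cacna1a. Cacna1b was higher in replicate 1 by TPM, with a log2 ratio of 0.19, but its ratio of counts was 0.946 (0.875 to 1.02). The gap came with Cacna1b-208, a partial coding model of 523 bases at 1.77 TPM in replicate 1 from 16.1 expected counts and at 0 in replicate 2.

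**Figure D4:**
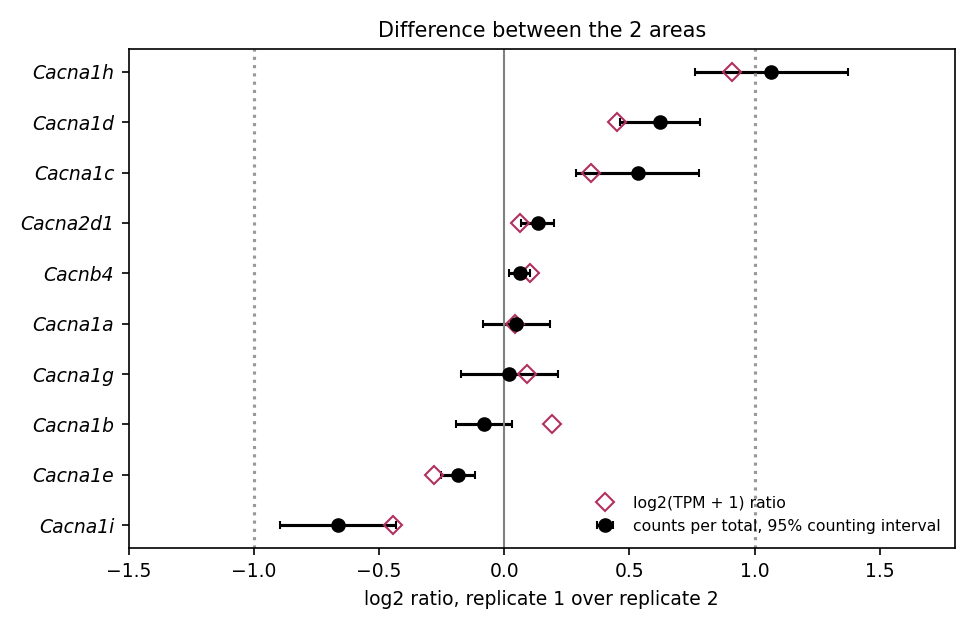
Log2 ratio of replicate 1 over replicate 2 for each member, as counts per total with exact 95% counting intervals (black) and as log2(TPM + 1) (open diamonds); dotted lines mark 2-fold. Cacna1h lies at the top with a count ratio of 2.09 and Cacna1i at the bottom with 0.632.

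The other beta and alpha2delta genes gave Cacnb4 and Cacna2d1 a setting. Cacnb3 was at 29.1 TPM in replicate 1, against 38.8 TPM in replicate 2, Cacnb1 at 15.6 TPM in replicate 1, against 22.2 TPM in replicate 2, and Cacnb2 at 7.35 TPM in replicate 1 and at 7.26 TPM in replicate 2. Cacnb4 was above all of them in both areas, also when its complete coding transcripts alone were counted. Cacna2d3 was at 17.8 TPM in replicate 1 and at 29.0 TPM in replicate 2, below Cacna2d1 in replicate 1 and above it in replicate 2, so that the 2 did not have a fixed order. Cacna2d2 was at 1.23 TPM in replicate 1 and at 1.03 TPM in replicate 2, and Cacna2d4 was at 0.03 TPM in replicate 1 and at 0 in replicate 2.

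**Figure D5:**
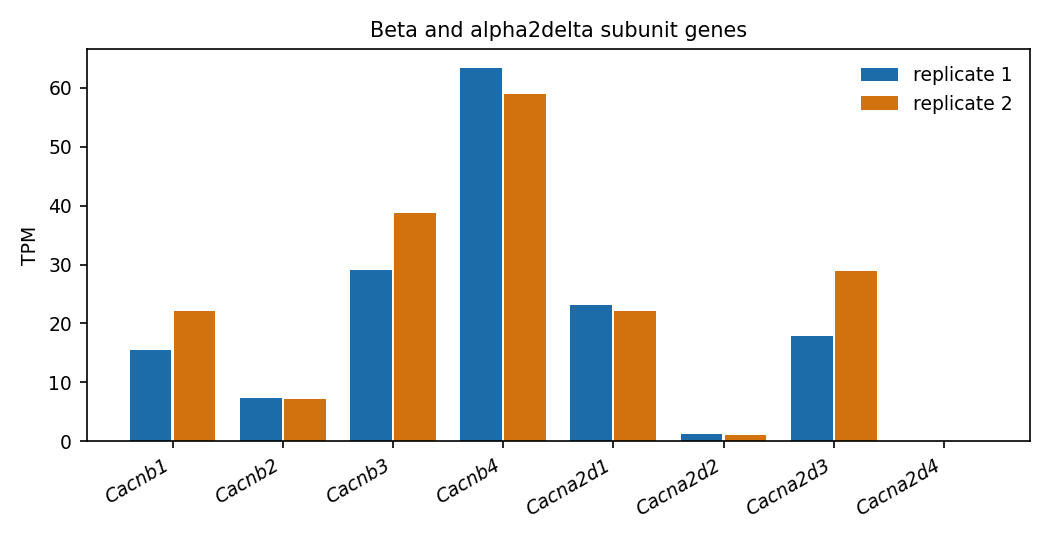
TPM of the 4 beta and 4 alpha2delta subunit genes, as bars for replicate 1 (left of each pair) and replicate 2. Cacnb4 is highest in both, at 63.4 and 59.0 TPM, and Cacna2d1 and Cacna2d3 change places between the areas.

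Subunits of muscle and retina were low or at 0. Cacna1s, the skeletal muscle pore, was at 1.18 TPM in replicate 1, from 23 counts, and at 0 in replicate 2. Cacng6, a muscle-type gamma subunit, was at 1.09 TPM in replicate 1, from 44 counts, and at 0 in replicate 2. Cacna1f, the retinal pore, and Cacng1, the skeletal muscle gamma subunit, had 0 counts in both. A count of 0 allows up to 0.115 CPM, a share of the library's counts, in replicate 1 and 0.106 in replicate 2, taken as 3 counts of the total. Of the 10 further pore, beta, alpha2delta and muscle gamma genes 5 were at 1 TPM or more in both libraries.

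Gene families that act with the channels were mixed. Of the 6 TARP genes, relatives of the muscle gamma subunit that traffic AMPA receptors, 3 were at 1 TPM or more in both. Cacng3 was at 38.1 TPM in replicate 1 and at 68.0 TPM in replicate 2, and Cacng2, the gene mutated in the stargazer mouse, was at 17.2 TPM in replicate 1 and at 12.7 TPM in replicate 2. Of 7 regulators, the RGK small GTPases that reduce channel currents and the STAC adaptors, Stac2 alone reached 1 TPM in both, at 27.3 TPM in replicate 1 and at 32.3 TPM in replicate 2. All 8 genes of the release site list did so. Their median level was 24.8 TPM in replicate 1, against 32.2 TPM in replicate 2. Snap25, a SNARE protein, was at 5995 TPM in replicate 1 and at 6966 TPM in replicate 2. In the same order Stx1a, a further SNARE protein, was at 77.2 and 131 TPM, and Rims1, an active zone scaffold, at 39.4 and 49.8 TPM. Of the release site genes 7 were higher in replicate 2, with a median log2 ratio of -0.28, as was the pan-neuronal list with 10 of 10 genes and a median of -0.25. Snap25 is in both of these lists. On the same log2(TPM + 1) scale the median of the alpha1 members was 0.14, against -0.05 over all genes tested. For all 10 members the gap to all genes tested depends on the scale. Their median was 0.096, against -0.046, on log2(TPM + 1), and 0.027, against -0.017, with TMM factors. The alpha1 members alone and the other lists were not compared with TMM factors.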

How the data were processed

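The deposited gene and transcript tables gave expected counts, estimated by the authors and not whole where a read maps to several features, and TPM, scaled by the authors over every feature, so that spike-in and mitochondrial RNA lower the values of other genes. They also gave a posterior mean TPM with an interval and, per transcript, the deposited percent of its gene. Per the labels, the protocol was of the Smart-seq type. Assembly mm10 and GENCODE M4 are named in the deposited text files; the columns are those of RSEM, but program, aligner and strand setting are not given in the sources used here.

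Symbols, coordinates, transcript types and sequences came from GENCODE M21 on the same assembly, matched by Ensembl number. Of the members' 95 transcripts 89 had the same length in M21; the 6 others are of Cacna1d and Cacna2d1, whose exons were not compared. Coding bases were used because a protein table was not used here, although protein residues had been planned. Differences are log2(TPM + 1), replicate 1 over replicate 2; counts were compared as ratios of counts per total with exact 95% binomial intervals. Such intervals, and the limits that a count of 0 allows, hold counting error alone, since no molecular identifiers were used. The libraries differed far beyond sampling noise, with a chi-square of 68.6 for each degree of freedom (14067 genes with 50 or more counts). TMM and size factors came from edgeR 4.0.16 and DESeq2 1.42.0 in R 4.3.3 on rounded expected counts. Other steps used matplotlib 3.10.9, scipy 1.17.1, pandas 2.3.3 and numpy 2.4.6 under Python 3.11.15. A log2 ratio was tested on simulated counts scaled to CPM, not on TPM, so that test does not cover the TPM ratios given here.

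The members and gene lists were chosen with earlier results of these data known. Named were all members, every further subunit gene, up to 4 of the highest genes of each other channel list, and up to 3 markers beside a result. Alternatives were other TPM and count minimums, a pseudocount of 0.1, CPM, posterior mean TPM, TPM of nuclear genes and leaving out each library; complete coding transcripts were added after seeing the data.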

Additional observations from a re-analysis of the deposited data

How the results depend on the processing

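Detection in both libraries covered 9 members at 1 TPM, 10 at 0.5 TPM, on posterior mean TPM or at 10 expected counts, 8 on complete coding transcripts and 5 at 5 TPM; leaving out a library gave 9 to 10. Cacna1a was in place 1 among alpha1 genes, and in place 4 on complete coding transcripts. The Cav2 share (76.7%) became 67.2% on complete coding transcripts, and ranged from 74.1% to 79.2% over single libraries. The L-type share (9.42%) became 12.4% on CPM and 15.2% on complete coding transcripts, with 7.67% to 11.2% over single libraries. The T-type share (13.9%) became 16.6% on posterior mean TPM, 12.7% on CPM and 17.6% on complete coding transcripts, with 13.1% to 14.8% over single libraries. The members' median log2 ratio, 0.096, was 0.11 with a pseudocount of 0.1, 0.075 on posterior mean TPM, 0.083 on nuclear TPM, 0.027 with TMM factors, 0.020 with DESeq2 factors and 0.0019 on complete coding transcripts. With the pseudocount of 0.1, 1 member, Cacna1h, passed 2-fold, where 0 did in the settings with a pseudocount of 1. Without a pseudocount the Cacna1h ratio was 3.03 on TPM and 2.09 on counts per total. The members whose log2 ratio changed sign were Cacna1b and Cacna1g with TMM or DESeq2 factors, and these and Cacnb4 on complete coding transcripts. The same transcript led in both libraries for 8 members, and for 9 by the posterior percent. Ratios have no value with a library left out. No paired analysis was possible because there was 1 group. Depth limits the models that rest on under 30 counts, such as Cacnb4-205. The causes of these shifts were not tested.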
